A study of Mus musculus with 4 samples.

Results

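The collagen gene family was followed in single-nucleus RNA of adult mouse hearts with and without an Rbm20 mutation. Members were the genes whose symbol reads Col, a number, a and a number, with at least 20 UMIs (unique molecular identifiers, 1 for each captured RNA molecule) over all libraries. Of 32287 features, 44 matched this name and 42 were members. Col6a5 (24 UMIs) and Col9a1 (34 UMIs) lay just inside the limit, and Col2a1 (11 UMIs) and Col6a4 (8 UMIs) just outside it. The rule uses a total over all libraries and no ratio between genotypes. Total cardiac nuclei of C57BL/6 mice aged 6 months were sequenced with the 10x Genomics 3′ assay in 4 libraries. They came from mice with a homozygous Rbm20 mutation after gene editing (labelled RBM20 homo with correction), mice with the homozygous mutation (RBM20 homo), mice with the heterozygous mutation (RBM20 het) and wild-type mice (WT). The nuclei are called corrected, homozygous, heterozygous and WT here. Rbm20, which encodes a splicing regulator of heart muscle, is mutated in some families with dilated cardiomyopathy. The allele, the editor and its delivery are not given in the sources used here, and the library protocol also speaks of CD45+ immune cells. Each library pooled 3 hearts, so n = 1 per genotype. No test between genotypes was possible, and every bracketed range below is a 95% interval for counting error only.

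Collagens are matrix proteins whose chains wind around each other into long helices. Fibrillar collagens form the tension-bearing fibres of the heart's interstitium and are made mostly by fibroblasts, whereas type IV chains form the sheet-like network of the basement membrane around cardiomyocytes and capillaries. FACIT collagens (fibril-associated collagens with interrupted helices) decorate fibrils, and transmembrane collagens stay anchored in the membrane of the cell that makes them. The 42 members were 10 fibrillar, 8 basement membrane, 9 FACIT and 4 transmembrane collagens, and 11 others, among them the microfibrils of type VI and the network-forming type VIII.

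Barcodes passing the filters numbered 13144 in the corrected, 10443 in the homozygous, 8871 in the heterozygous and 8681 in the WT library, with a median of 2365 UMIs in corrected, 3146 in homozygous, 3023 in heterozygous and 2855 in WT nuclei. Pairs of libraries shared 26 to 56 barcodes. Clusters were built without any collagen gene and named from markers, which gave 12 lineages. The homozygous library stood apart from the rest in both main lineages. Of fibroblast-like nuclei, cluster 4 held 3.9% of corrected, 87.6% of homozygous, 6.76% of heterozygous and 2.5% of WT nuclei, and cluster 1 held 88.8% of corrected, 11.4% of homozygous, 86.6% of heterozygous and 84.6% of WT nuclei. Of ventricular cardiomyocyte-like nuclei, cluster 3 held 10.8% of corrected, 97.8% of homozygous, 6.32% of heterozygous and 1.63% of WT nuclei. As a share of the cardiomyocyte-like UMIs, Malat1, a nuclear noncoding RNA, took 15.4% in corrected, 24.1 in homozygous, 15.3 in heterozygous and 14.4 in WT nuclei.

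CPM is the number of UMIs a gene had in every 1000000 UMIs of its lineage and library, mitochondrial UMIs set aside. A ratio was called past 1.5-fold where both libraries together held at least 50 UMIs. Fewer cells of a state and less RNA per cell cannot be told apart in such sums.

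Type IV genes lie in pairs that start next to each other on opposite strands, so start windows of these genes are shown first, together with those of Col8a1 and Col5a3, whose levels differed far between libraries. In the GENCODE vM21 annotation of GRCm38, Col4a1 and Col4a2 on chromosome 8 start with an overlap of 22 bases. Col4a4 and Col4a3 on chromosome 1 start 71 bases apart, and Col4a6 and Col4a5 on chromosome X start 1308 bases apart. Each window is 300 bases, 250 before and 50 after the RefSeq start (GRCm38.p6), printed 5′ to 3′ on the gene's strand. Capitals mark CCAAT (or ATTGG) and GGGCGG (or CCGCCC), and TATAAA was absent from all 6. RefSeq windows were found for 34 of the 42 members, and Col4a3 was not among them. The Col4a2 window overlaps that of Col4a1 and is not printed. It held 1 CCAAT match and 3 GC boxes (GGGCGG).
Col4a1, chr8:11312777-11313076, minus strand: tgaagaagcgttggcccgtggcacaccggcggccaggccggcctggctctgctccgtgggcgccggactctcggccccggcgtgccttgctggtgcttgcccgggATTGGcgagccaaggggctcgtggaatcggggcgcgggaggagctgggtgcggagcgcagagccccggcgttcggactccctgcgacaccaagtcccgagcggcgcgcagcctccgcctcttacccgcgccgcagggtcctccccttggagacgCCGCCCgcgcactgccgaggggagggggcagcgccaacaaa
Col4a4, chr1:82586800-82587099, minus strand: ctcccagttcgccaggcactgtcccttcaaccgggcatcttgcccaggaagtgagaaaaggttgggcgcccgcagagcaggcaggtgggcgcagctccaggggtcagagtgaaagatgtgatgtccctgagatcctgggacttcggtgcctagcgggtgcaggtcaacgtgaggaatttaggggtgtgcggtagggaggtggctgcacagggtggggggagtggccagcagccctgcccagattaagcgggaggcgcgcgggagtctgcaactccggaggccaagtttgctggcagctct
Col4a6, chrX:141474027-141474326, minus strand: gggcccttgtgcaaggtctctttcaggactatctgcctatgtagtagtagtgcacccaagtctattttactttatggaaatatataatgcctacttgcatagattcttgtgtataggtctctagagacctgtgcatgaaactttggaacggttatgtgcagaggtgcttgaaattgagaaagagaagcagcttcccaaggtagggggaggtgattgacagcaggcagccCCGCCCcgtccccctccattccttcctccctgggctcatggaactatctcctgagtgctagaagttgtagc
Col4a5, chrX:141475169-141475468, plus strand: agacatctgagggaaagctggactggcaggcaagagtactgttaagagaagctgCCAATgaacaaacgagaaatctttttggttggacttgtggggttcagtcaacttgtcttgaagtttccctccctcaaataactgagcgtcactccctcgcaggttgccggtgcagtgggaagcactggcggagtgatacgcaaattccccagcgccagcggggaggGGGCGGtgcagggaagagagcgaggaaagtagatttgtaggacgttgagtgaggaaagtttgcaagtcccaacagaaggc
Col8a1, chr16:57754688-57754987, minus strand: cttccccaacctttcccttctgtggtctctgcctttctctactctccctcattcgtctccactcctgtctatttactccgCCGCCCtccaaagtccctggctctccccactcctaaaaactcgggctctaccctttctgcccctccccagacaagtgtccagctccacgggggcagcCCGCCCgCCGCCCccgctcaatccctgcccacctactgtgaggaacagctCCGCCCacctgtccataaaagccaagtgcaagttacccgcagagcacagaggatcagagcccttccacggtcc
Col5a3, chr9:20815018-20815317, minus strand: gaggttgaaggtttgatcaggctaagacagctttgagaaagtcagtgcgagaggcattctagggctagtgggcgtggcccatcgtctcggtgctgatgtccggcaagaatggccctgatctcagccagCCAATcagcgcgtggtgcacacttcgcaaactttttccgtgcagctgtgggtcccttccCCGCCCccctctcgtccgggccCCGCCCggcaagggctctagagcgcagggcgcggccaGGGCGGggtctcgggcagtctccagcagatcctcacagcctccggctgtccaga
Over 37 collagen windows (some genes have more than 1 start), GGGCGG stood on either strand in 22, CCAAT in 12 and TATAAA in 5. Over all 32851 windows these shares were 35.7%, 37.4% and 13.6%. The Col4a4 window, which also spans the start of Col4a3, held none of these motifs, and the Col8a1 window held 4 GC boxes. A match is a run of letters, and nothing about a factor follows from it.

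By CPM, collagen RNA was highest in fibroblast-like nuclei in each library. Summed over the members it reached 6463 CPM in corrected, 8710.2 in homozygous, 4878 in heterozygous and 4695 in WT nuclei. Endothelial-like nuclei had 1989 CPM in corrected, 2217 in homozygous, 1340.5 in heterozygous and 1627 in WT nuclei, and ventricular cardiomyocyte-like nuclei had 773 CPM in corrected, 1059.6 in homozygous, 694 in heterozygous and 606 in WT nuclei. Per nucleus, fibroblast-like nuclei were highest in the corrected and homozygous libraries only, as Schwann-like nuclei held 12.5 collagen UMIs in corrected, 20.2 in homozygous, 19 in heterozygous and 16.7 in WT nuclei, against 15.7 collagen UMIs in corrected, 26.9 in homozygous, 14.1 in heterozygous and 12.2 in WT nuclei in the fibroblast-like lineage. Leukocyte-like nuclei (macrophage-, T cell- and B cell-like together) held 1774 CPM in corrected, 3279 in homozygous, 1891 in heterozygous and 1463 in WT nuclei. These nuclei also carried all 11 fibroblast markers. As a percentage of the UMIs per nucleus found in fibroblast-like nuclei, the markers stood at 23.9% in corrected, 38.4% in homozygous, 39.2% in heterozygous and 28.9% in WT nuclei. Some members with enough UMIs in fibroblast-like nuclei exceeded the highest marker on this scale. They were 13 of 31 in corrected, 10 of 33 in homozygous, 11 of 27 in heterozygous and 11 of 25 in WT nuclei. Col4a1, Col4a2, Col4a5, Col14a1, Col18a1 and Col20a1 were among them in each library. Whether leukocyte-like nuclei make this RNA themselves was not tested.

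A member is therefore called above the leukocyte-like level in a lineage when its counting interval lay wholly above the leukocyte-like one in all 4 libraries. This had to hold both for UMIs per nucleus and for CPM. Lineages with few UMIs have wide intervals, so their members meet this rule less easily. The rule was met by 20 of the 42 members in fibroblast-like nuclei. They were the fibrillar Col1a1, Col1a2, Col3a1, Col5a1, Col5a2, Col5a3 and Col27a1, the basement membrane Col4a1, Col4a3, Col4a4, Col4a5, Col4a6 and Col15a1, the FACIT Col16a1, and Col6a1, Col6a2, Col6a3, Col6a6, Col8a1 and Col26a1. In cardiomyocyte-like nuclei Col4a5 alone met it. In endothelial-like nuclei it held for Col4a1, Col4a2, Col13a1 and Col28a1, and in endocardial-like nuclei for Col4a3, Col4a4, Col18a1, Col5a2, Col23a1 and Col25a1. Pericyte-like nuclei had Col5a3 and Col25a1, lymphatic endothelial-like nuclei Col18a1 and Col23a1, and smooth muscle-like nuclei Col4a5, Col4a6, Col18a1 and Col19a1. In Schwann-like nuclei there were 7 such members and in mesothelial-like nuclei 6.

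The leukocyte-like nuclei were themselves not uniform. At clustering resolution 1.6, 1314 of the 3683 (35.7%) lay in clusters with markers of several lineages, 757 of them in 1 cluster of macrophage and fibroblast markers. Whether such barcodes hold more than 1 nucleus was not tested. The 2367 that kept a leukocyte-like name at both resolutions held 1017 CPM of collagens in corrected, 1715 in homozygous, 1039.95 in heterozygous and 603 in WT nuclei and fibroblast markers at 9.41% in corrected, 14% in homozygous, 12.8% in heterozygous and 7.05% in WT nuclei, on the same scale as above. Against these nuclei alone, a choice made after the data were seen, 21 members were above in fibroblast-like nuclei, with Col4a2 added, and Col4a5 and Col4a2 were above in cardiomyocyte-like nuclei. In endothelial-like nuclei Col18a1 was added and Col28a1 was lost. The smaller lineages gained more, with 9 members in pericyte-like and 11 in endocardial-like nuclei.

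**Figure D1:**
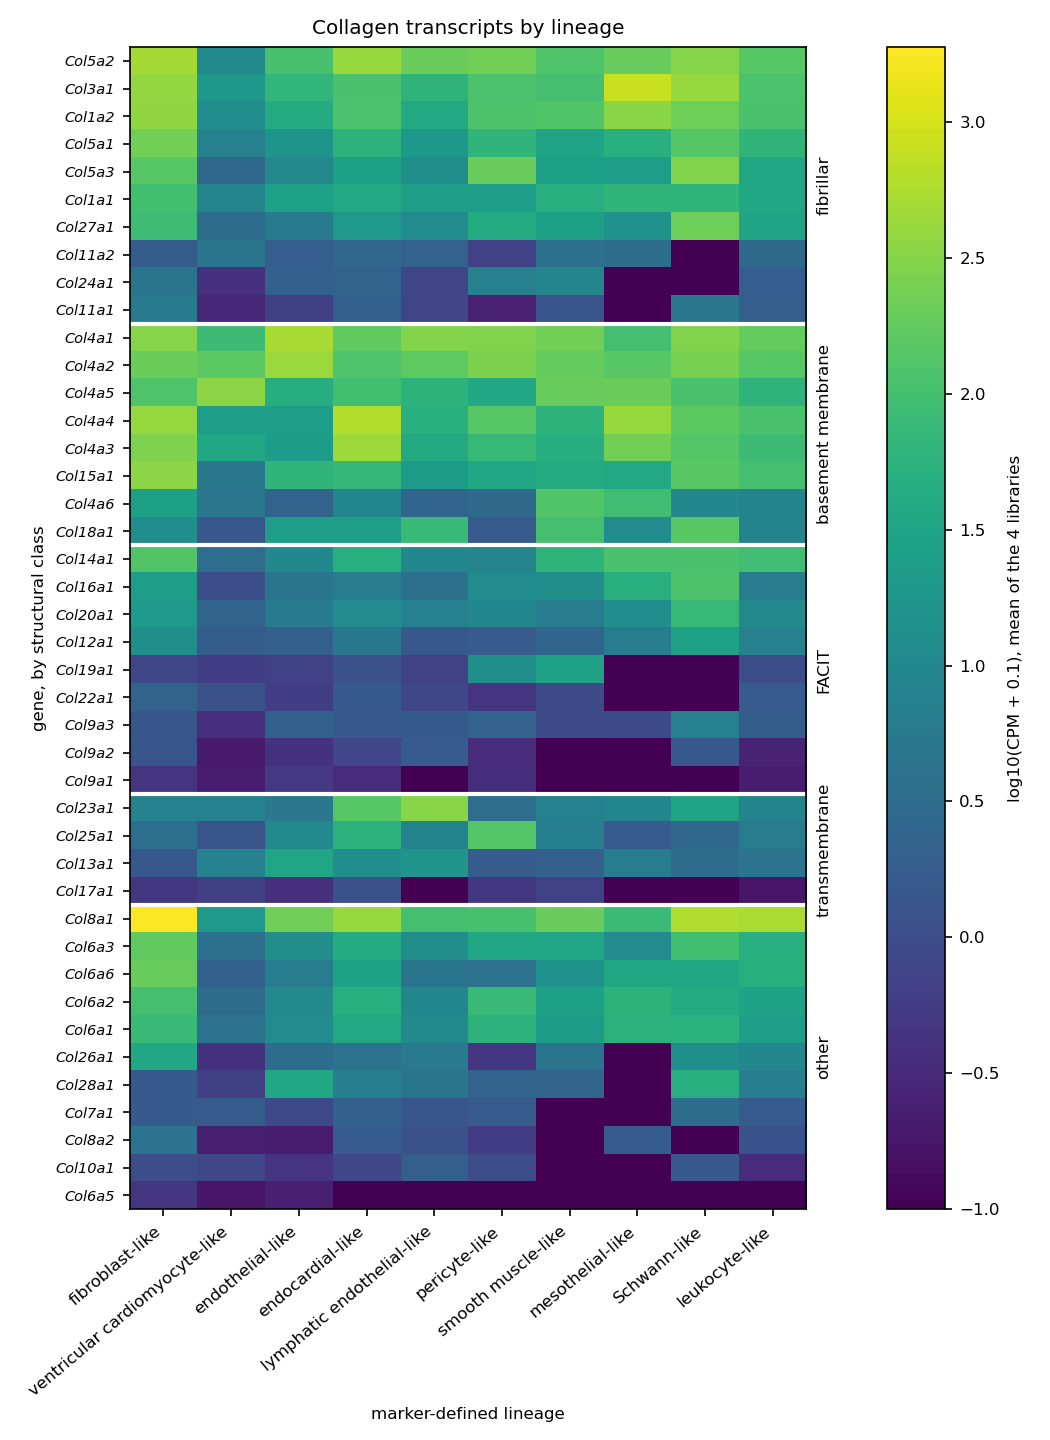
Mean level of each collagen over the 4 libraries, as log10(CPM + 0.1), with the 42 members in rows grouped by structural class and the lineages in columns. Macrophage-, T cell- and B cell-like nuclei are drawn together as leukocyte-like but were ranked apart. In that ranking, 12 of the 32 members with at least 300 UMIs were highest in fibroblast-like nuclei, Col1a1, Col1a2, Col8a1 and 4 type VI genes among them. Col4a5 was highest in cardiomyocyte-like, Col4a1 and Col4a2 in endothelial-like and Col25a1 in pericyte-like nuclei.

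In fibroblast-like nuclei the homozygous and WT libraries were compared first. Of 29 members with enough UMIs, 15 were higher and 4 lower in homozygous nuclei past 1.5-fold. Of all genes read, 14.1% were higher and 8.86% lower by that fold. The median log2 ratio was 0.69 for the members and 0.05 for all genes. Of the fibrillar genes, 7 of the 9 read were higher and 1 was lower. Col1a1 (chromosome 11, 94936224 to 94953042), which encodes the main chain of type I collagen, stood at 96.3 CPM [89.9 to 103] in corrected, 179 [171 to 188] in homozygous, 50.6 [45.3 to 56.3] in heterozygous and 57.9 [51.4 to 65] in WT nuclei. It was 3.1-fold higher [2.73 to 3.52] in homozygous than in WT nuclei, and the heterozygous and WT intervals overlapped. Col1a2, the partner chain of type I, was at 347 CPM in corrected, 523 in homozygous, 268 in heterozygous and 310.3 in WT nuclei, and Col3a1, the type III chain of thin reticular fibres, at 431 CPM in corrected, 519 in homozygous, 246 in heterozygous and 310.5 in WT nuclei. Homozygous nuclei were highest for both, with Col1a2 1.68-fold higher [1.59 to 1.78] and Col3a1 1.67-fold higher [1.58 to 1.77] than in WT.

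Type V collagen, which starts and limits fibril growth, split by chain. Col5a2 was at 517 CPM in corrected, 669 in homozygous, 378 in heterozygous and 409 in WT nuclei, 1.63-fold higher [1.55 to 1.72] in homozygous than in WT nuclei. Col5a1 stayed within 1.5-fold in every comparison, at 276 CPM in corrected, 202 in homozygous, 213 in heterozygous and 251 in WT nuclei. Col5a3 (chromosome 9, 20770050 to 20815067) went the other way, at 323 CPM [312 to 336] in corrected, 33.5 [29.9 to 37.4] in homozygous, 84.5 [77.7 to 91.8] in heterozygous and 137 [127 to 147] in WT nuclei. No 2 of these 4 intervals overlapped. Col5a3 was 4.09-fold lower [3.57 to 4.69] in homozygous than in WT nuclei, 9.66-fold higher [8.6 to 10.9] in corrected than in homozygous nuclei, and 2.36-fold higher [2.17 to 2.57] in corrected than in WT nuclei. It was also 1.62-fold lower [1.45 to 1.81] in heterozygous than in WT nuclei.

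Col27a1, a fibrillar chain known from cartilage, had 101 CPM in corrected, 132 in homozygous, 60.9 in heterozygous and 54.5 in WT nuclei. Homozygous and corrected nuclei were both above the other 2 libraries, 2.42-fold higher [2.12 to 2.77] and 1.86-fold higher [1.62 to 2.14] than in WT. Scarcer chains had the same top library. Col11a1, which nucleates fibrils beside type V, was at 6.47 CPM [4.9 to 8.38] in corrected, 12.2 [10.1 to 14.7] in homozygous, 2.1 [1.15 to 3.53] in heterozygous and 2.4 [1.24 to 4.2] in WT nuclei, and Col24a1 at 2.72 CPM [1.75 to 4.05] in corrected, 8.61 [6.83 to 10.7] in homozygous, 3.9 [2.55 to 5.72] in heterozygous and 2.4 [1.24 to 4.2] in WT nuclei. Both were highest in homozygous nuclei, Col11a1 5.08-fold higher [2.8 to 10.1] and Col24a1 3.58-fold higher [1.94 to 7.22] than in WT, but WT held only 12 UMIs of either gene.

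**Figure D2:**
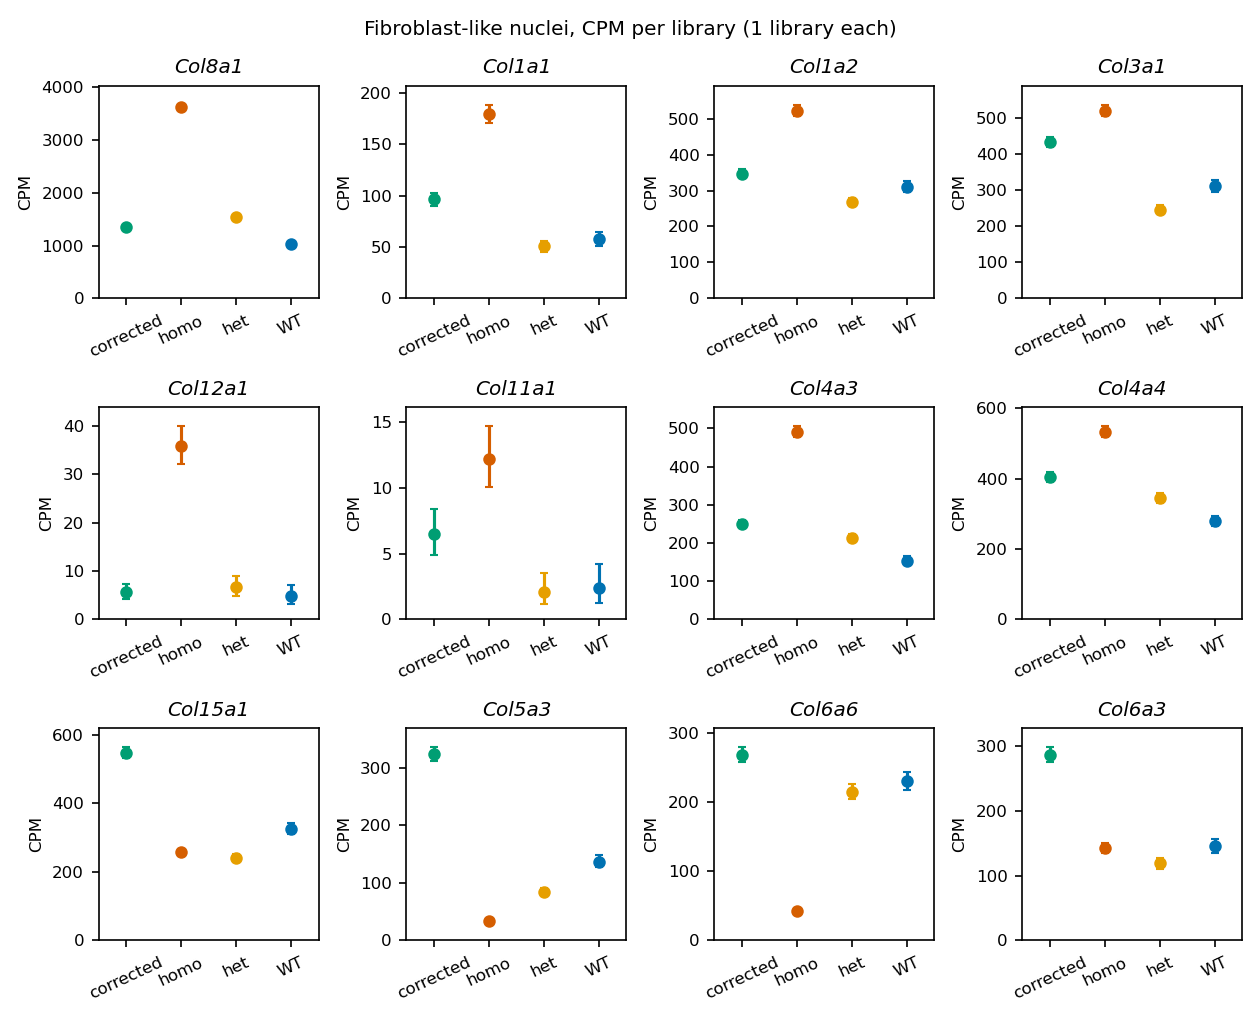
CPM of 12 collagens in fibroblast-like nuclei, 1 point per library, with 95% counting intervals. Homozygous nuclei are highest for Col8a1, Col1a1, Col1a2, Col3a1, Col12a1, Col11a1, Col4a3 and Col4a4, and lowest for Col5a3 and Col6a6, while corrected nuclei are highest for Col15a1, Col5a3, Col6a6 and Col6a3.

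Basement membrane genes in fibroblast-like nuclei were higher in homozygous than in WT nuclei for 4 of 8 and lower for 1. Over all genes 14.1% were higher and 8.86% lower by that fold. Col4a3 had 249 CPM [238 to 259] in corrected, 491 [477 to 505] in homozygous, 212 [201 to 224] in heterozygous and 153 [143 to 165] in WT nuclei, and Col4a4 had 405 CPM [391 to 418] in corrected, 534 [519 to 549] in homozygous, 345 [331 to 359.6] in heterozygous and 279 [265 to 294] in WT nuclei. These 2 chains assemble with the product of Col4a5 in specialised basement membranes such as that of the kidney filter. Homozygous nuclei were highest for both, by 3.2-fold [2.96 to 3.46] and 1.91-fold [1.8 to 2.03] over WT, and no 2 of the 4 intervals overlapped for either gene. Col4a1 and Col4a2, the chains found in nearly all basement membranes, were at 364 CPM in corrected, 396 in homozygous, 245 in heterozygous and 245 in WT nuclei and at 238 CPM in corrected, 305 in homozygous, 147 in heterozygous and 148 in WT nuclei. Heterozygous and WT nuclei overlapped for both, and homozygous nuclei were 1.61-fold higher [1.51 to 1.72] for Col4a1 and 2.07-fold higher [1.91 to 2.24] for Col4a2 than WT.

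The third pair did not move together. Col4a5 had 141 CPM in corrected, 110.1 in homozygous, 119 in heterozygous and 139 in WT nuclei and stayed within 1.5-fold, whereas Col4a6 had 29.3 CPM [25.8 to 33.1] in corrected, 16 [13.6 to 18.8] in homozygous, 29.7 [25.7 to 34.2] in heterozygous and 33.5 [28.6 to 38.9] in WT nuclei and was 2.08-fold lower [1.66 to 2.62] in homozygous than in WT nuclei. Col15a1, a basement membrane proteoglycan of muscle and vessels, was at 547 CPM [532 to 563] in corrected, 257 [247 to 268] in homozygous, 240.5 [229 to 253] in heterozygous and 326 [310.4 to 342] in WT nuclei. Corrected nuclei were the highest, 2.13-fold higher [2.03 to 2.23] than homozygous and 1.68-fold higher [1.59 to 1.78] than WT nuclei. Col18a1, the source of endostatin, was scarce at 15.4 CPM in corrected, 12.9 in homozygous, 11.7 in heterozygous and 10.02 in WT nuclei.

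Among the other classes Col8a1 (chromosome 16, 57624258 to 57754737), a short chain of the network-forming type VIII, had the most UMIs of any member. Its level was 1351 CPM [1326 to 1375] in corrected, 3623 [3585 to 3662] in homozygous, 1541 [1512 to 1571] in heterozygous and 1037 [1009 to 1066] in WT nuclei, which is 11.2 UMIs per homozygous nucleus and 2.7 per WT nucleus. It was 3.49-fold higher [3.39 to 3.6] in homozygous than in WT nuclei, and homozygous nuclei held most UMIs of its partner Col8a2 too, at 2.84 CPM in corrected, 8.93 in homozygous, 2.85 in heterozygous and 1.8 in WT nuclei. Col12a1, a FACIT that binds fibrils under load, was at 5.56 CPM [4.11 to 7.35] in corrected, 35.9 [32.2 to 39.95] in homozygous, 6.6 [4.8 to 8.87] in heterozygous and 4.81 [3.08 to 7.15] in WT nuclei. Homozygous nuclei stood apart, 7.47-fold higher [4.94 to 11.8] than WT, and the other 3 intervals overlapped one another.

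Type VI collagen forms beaded filaments around cells. Col6a6 had 268 CPM [258 to 279] in corrected, 42.2 [38.1 to 46.5] in homozygous, 215 [204 to 226] in heterozygous and 229.9 [217 to 244] in WT nuclei, so that homozygous nuclei were 5.45-fold lower [4.86 to 6.13] than WT and corrected nuclei 6.36-fold higher [5.72 to 7.09] than homozygous. Col6a3 was instead highest in corrected nuclei, at 286 CPM in corrected, 142 in homozygous, 119 in heterozygous and 145 in WT nuclei. Col6a2 followed with 139.6 CPM in corrected, 114 in homozygous, 77.9 in heterozygous and 85.7 in WT nuclei, and Col6a1 stayed within 1.5-fold at 88 CPM in corrected, 77.9 in homozygous, 63.9 in heterozygous and 83.7 in WT nuclei. Col26a1 was lowest in homozygous nuclei, at 42.3 CPM in corrected, 21.5 in homozygous, 37.7 in heterozygous and 37.5 in WT nuclei. The FACIT genes Col14a1, Col16a1 and Col20a1 stayed within 1.5-fold of WT in homozygous nuclei. Their levels were 123 CPM in corrected, 159 in homozygous, 99.97 in heterozygous and 139 in WT nuclei for Col14a1, 18 CPM in corrected, 34.7 in homozygous, 18.2 in heterozygous and 24 in WT nuclei for Col16a1 and 20.2 CPM in corrected, 21.5 in homozygous, 17.7 in heterozygous and 18.6 in WT nuclei for Col20a1. Transmembrane collagens were scarce in this lineage, with Col23a1 at 9.53 CPM in corrected, 8.39 in homozygous, 8.71 in heterozygous and 3.41 in WT nuclei and Col25a1 at 6.92 CPM in corrected, 1.81 in homozygous, 2.55 in heterozygous and 2.4 in WT nuclei.

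Corrected fibroblast-like nuclei were next set against homozygous and against WT nuclei. Against homozygous nuclei, 7 members were higher and 9 lower of 31 read, where 8.18% higher and 12.3% lower was the share over all genes. The lower ones were Col1a1 (1.86-fold lower [1.71 to 2.02]), Col1a2, Col11a1, Col24a1, Col4a3 (1.97-fold lower [1.88 to 2.08]), Col12a1 (6.46-fold lower [4.77 to 8.9]), Col16a1, Col8a1 (2.68-fold lower [2.63 to 2.74]) and Col8a2. The higher ones were Col5a3, Col6a6, Col15a1, Col6a3 (2.01-fold higher [1.88 to 2.15]), Col26a1, Col4a6 and Col25a1. Against WT, 12 of 28 members were higher in corrected nuclei and 0 lower, beside 6.54% higher and 5.63% lower over all genes. They were Col5a3, Col27a1, Col1a1 (1.66-fold higher [1.45 to 1.91]), Col11a1, Col15a1, Col4a3 (1.62-fold higher [1.49 to 1.76]), Col4a2, Col18a1, Col6a3 (1.97-fold higher [1.81 to 2.14]), Col6a2, Col23a1 and Col25a1. Both comparisons use the same corrected library. In heterozygous against WT nuclei 1 member of 26 was higher (Col23a1, 2.56-fold higher [1.47 to 4.68]) and 1 lower (Col5a3), where all genes had 3.81% higher and 3.98% lower.

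**Figure D3:**
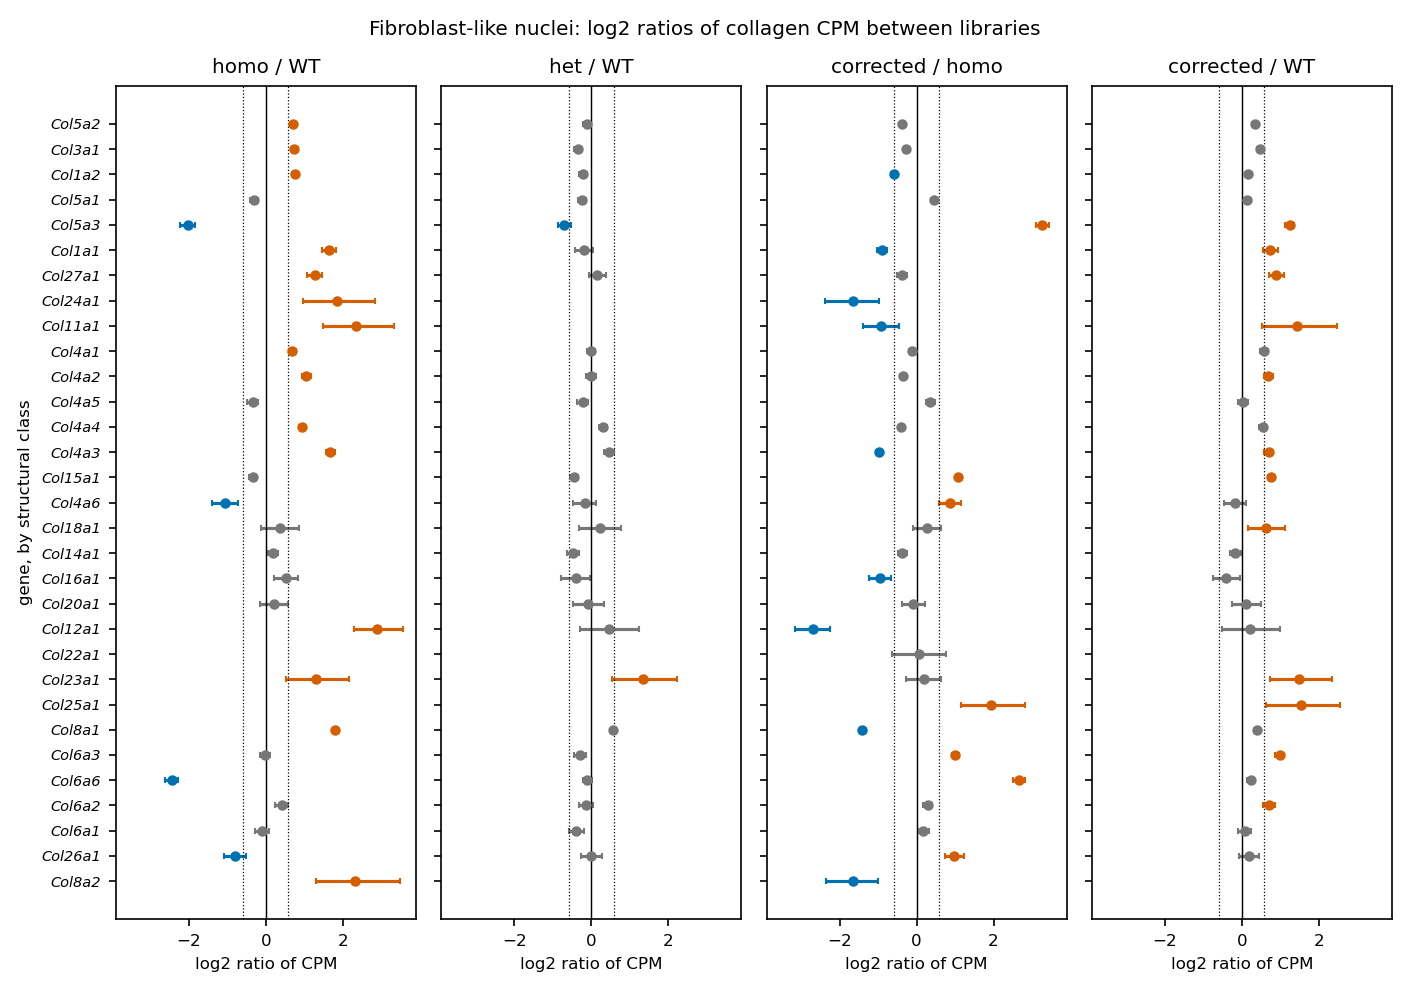
Log2 ratios of collagen CPM in fibroblast-like nuclei, with genes in rows by structural class and 1 panel per pair of libraries; bars are 95% counting intervals. Col5a3 and Col6a6 lie far left in homozygous over WT (-2.03 and -2.45) and far right in corrected over homozygous (3.27 and 2.67), and Col12a1 and Col8a1 do the reverse.

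Since most homozygous fibroblast-like nuclei sat in another cluster than the rest, the members were also read within each cluster. Cluster 4, with Cilp and Postn among its leading genes, held 142 corrected, 2671 homozygous, 156 heterozygous and 48 WT nuclei, and cluster 1 held 3230 corrected, 349 homozygous, 1997 heterozygous and 1621 WT nuclei. Col8a1 was higher in cluster 4 than in cluster 1 in every library: in cluster 4 it was at 3037 CPM in corrected, 3886 in homozygous, 3254 in heterozygous and 1932 in WT nuclei, and in cluster 1 at 1325 CPM in corrected, 1624 in homozygous, 1455 in heterozygous and 1097 in WT nuclei. Col12a1 was also higher in cluster 4 in every library, with 52.4 CPM in corrected, 39.1 in homozygous, 13 in heterozygous and 69.2 in WT nuclei in cluster 4 and 3.49 CPM in corrected, 12.2 in homozygous, 6.22 in heterozygous and 2.44 in WT nuclei in cluster 1. There were only 7 to 20 UMIs of Col12a1 in cluster 4 of the corrected, heterozygous and WT libraries. Col6a6 was the opposite, at 78.6 CPM in corrected, 34.7 in homozygous, 96.6 in heterozygous and 69.2 in WT nuclei in cluster 4 and at 295 CPM in corrected, 109.6 in homozygous, 243 in heterozygous and 272 in WT nuclei in cluster 1.

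Within cluster 1 alone, 10 of 23 members were past 1.5-fold between homozygous and WT nuclei, 5 in each direction, where all genes had 11.5% higher and 10.1% lower, compared with 19 of 29 members over all fibroblast-like nuclei. The ratio of homozygous to WT CPM in cluster 1 was 2.66 [2.14 to 3.29] for Col1a1, 1.89 [1.5 to 2.37] for Col27a1, 1.76 [1.52 to 2.04] for Col4a2, 1.69 [1.45 to 1.96] for Col4a3 and 1.54 [1.38 to 1.71] for Col3a1. It was 1.48 [1.4 to 1.57] for Col8a1, which no longer passed the fold. On the low side it was 0.18 [0.117 to 0.267] for Col5a3, 0.403 [0.328 to 0.492] for Col6a6, 0.5 [0.424 to 0.586] for Col15a1 and 0.611 [0.48 to 0.769] for Col4a5. Col15a1 and Col4a5 had stayed within 1.5-fold over the whole lineage. Cluster 1 alone was chosen after the data were seen.

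Within cluster 4, 11 members were higher and 7 lower in homozygous than in WT nuclei of 29 read, but the 48 WT nuclei left wide intervals and all genes had 29.4% higher and 17.6% lower. The ratio there was 2.37 [1.51 to 3.94] for Col4a2, 2.01 [1.79 to 2.27] for Col8a1 and 1.76 [1.3 to 2.43] for Col4a3. For Col1a1 it was 1.21 [0.793 to 1.93] and for Col3a1 0.834 [0.678 to 1.04], so both intervals crossed 1. On the low side it was 0.334 [0.199 to 0.605] for Col5a3 and 0.14 [0.0816 to 0.258] for Col4a6, whereas the Col6a6 interval crossed 1 at 0.501 [0.269 to 1.06].

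**Figure D4:**
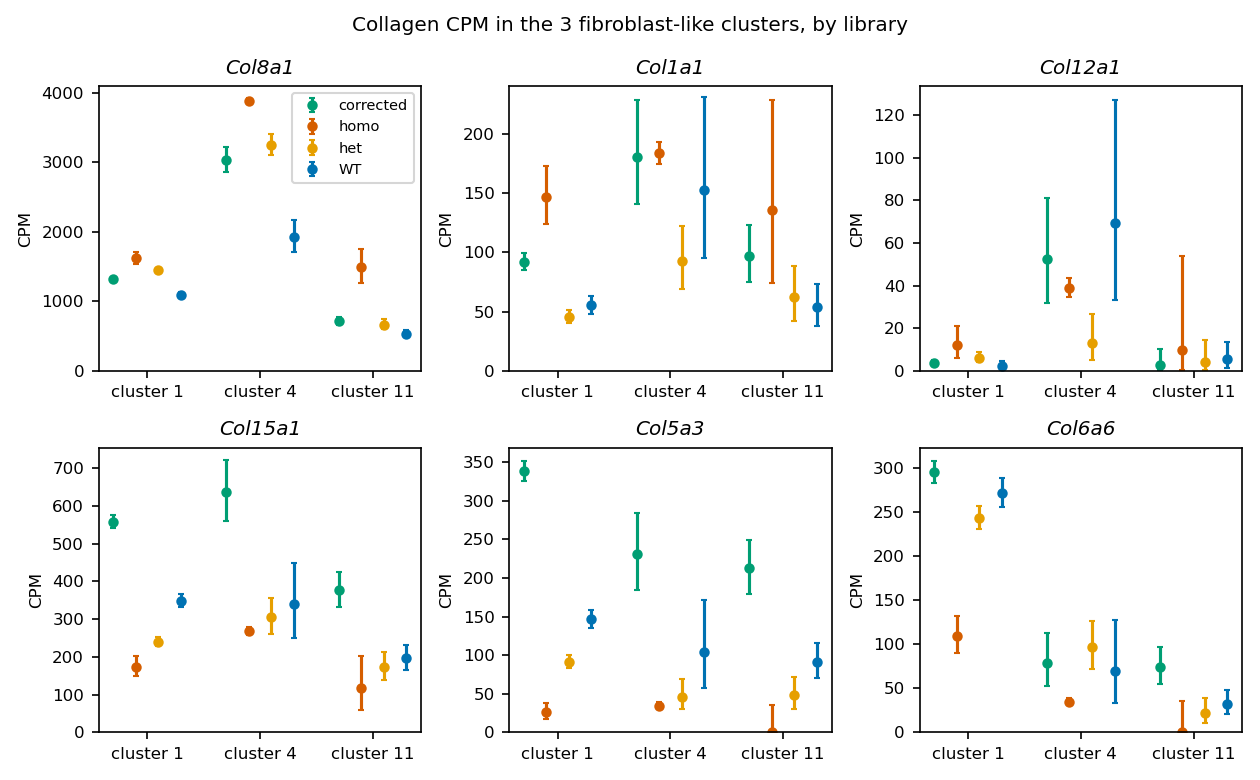
CPM of 6 collagens in the 3 fibroblast-like clusters, 1 point per library, with 95% counting intervals. Col8a1 is highest in cluster 4 in every library, and Col5a3 is highest in the corrected library in clusters 1, 4 and 11.

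Genes of collagen synthesis also split. Of 35 listed enzymes, chaperones and proteinases, 31 were read in fibroblast-like nuclei, and 7 were higher and 7 lower in homozygous than in WT nuclei, beside the 14.1% higher and 8.86% lower of all genes. P3h2, a prolyl hydroxylase, had 87 CPM in homozygous nuclei, against 11.6 CPM in WT nuclei, 7.49-fold higher [5.74 to 9.95]. Adamts3, which trims procollagen, was 3.86-fold higher [3.33 to 4.51], and Lox, the cross-linking lysyl oxidase, was 2.78-fold higher [1.79 to 4.51]. Tll2, a tolloid proteinase and 1 of the leading genes of cluster 1, had 12.3 CPM in homozygous nuclei, against 118 CPM in WT nuclei, 9.57-fold lower [7.83 to 11.8]. Against homozygous nuclei, corrected nuclei had 5 members higher, among them Tll2 (7.0-fold higher [5.75 to 8.58]), Adamts14 (3.83-fold higher [3.2 to 4.62]) and Loxl2 (1.99-fold higher [1.82 to 2.18]), and 7 lower, led by Lox (3.1-fold lower [2.14 to 4.59]), beside 8.18% higher and 12.3% lower. Against WT, 4 were higher in corrected nuclei, P3h2 (3.14-fold higher [2.36 to 4.22]) and Adamts14 (2.12-fold higher [1.76 to 2.56]) among them, and Pcolce2, an enhancer of procollagen trimming, was the 1 lower gene at 2.09-fold lower [1.94 to 2.25], beside 6.54% higher and 5.63% lower. In heterozygous nuclei P3h2 (1.8-fold higher [1.31 to 2.48]) and Adamts3 (1.69-fold higher [1.43 to 2.01]) were the 2 of 31 past the fold, beside 3.81% higher and 3.98% lower, a share of higher genes near that of all genes. Of 10 listed collagen receptors, 8 were read and 1 was past the fold in each direction in homozygous against WT nuclei. These shares were near the 14.1% higher and 8.86% lower of all genes. Ddr2, the receptor kinase of fibroblasts for fibrillar collagen, had 244 CPM in homozygous nuclei, against 552 CPM in WT nuclei, 2.27-fold lower [2.14 to 2.4], and was 1.83-fold higher [1.74 to 1.92] in corrected than in homozygous nuclei. Itga1, an integrin chain that binds type IV collagen, was 1.58-fold higher [1.42 to 1.77] in homozygous than in WT nuclei.

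Cardiomyocyte-like nuclei carried mainly basement membrane collagen, at 81.9% in corrected, 81.2% in homozygous, 86.2% in heterozygous and 84.8% in WT nuclei of their collagen UMIs, against 30.8% in corrected, 24.4% in homozygous, 27.7% in heterozygous and 28.4% in WT nuclei in the fibroblast-like lineage. Col4a5 (chromosome X, 141475385 to 141689234) was at 336 CPM [327 to 345] in corrected, 426 [417 to 435] in homozygous, 301 [293 to 310.2] in heterozygous and 283 [274 to 291] in WT nuclei, and it was 1.51-fold higher [1.45 to 1.56] in homozygous than in WT nuclei. Per nucleus this was 1.71 UMIs in corrected, 2.84 in homozygous, 1.94 in heterozygous and 1.55 in WT nuclei, against leukocyte-like values of 0.167 UMIs in corrected, 0.229 in homozygous, 0.178 in heterozygous and 0.182 in WT nuclei. Col4a2 was at 154 CPM in corrected, 188 in homozygous, 144 in heterozygous and 143 in WT nuclei and within 1.5-fold. Col4a1, its partner, was at 78.8 CPM in corrected, 142 in homozygous, 67.2 in heterozygous and 57.3 in WT nuclei, so 2.48-fold higher [2.3 to 2.67] in homozygous than in WT nuclei.

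Col4a3 and Col4a4 were both higher in homozygous than in WT nuclei here as well. Col4a3 had 29 CPM [26.4 to 31.8] in corrected, 49.9 [46.8 to 53.1] in homozygous, 51.9 [48.4 to 55.6] in heterozygous and 14.1 [12.3 to 16.1] in WT nuclei, and Col4a4 had 22.3 CPM [20.01 to 24.8] in corrected, 38.6 [35.9 to 41.5] in homozygous, 25.2 [22.8 to 27.9] in heterozygous and 9.25 [7.83 to 10.9] in WT nuclei. WT nuclei were the lowest for both, and homozygous nuclei were 3.54-fold higher [3.06 to 4.1] for Col4a3 and 4.17-fold higher [3.5 to 5.01] for Col4a4. Against the same WT nuclei, corrected nuclei were 2.06-fold higher [1.75 to 2.42] for Col4a3 and 2.41-fold higher [1.98 to 2.94] for Col4a4, and heterozygous nuclei 3.68-fold higher [3.17 to 4.28] for Col4a3 and 2.73-fold higher [2.25 to 3.32] for Col4a4. In homozygous and heterozygous nuclei the Col4a3 intervals overlapped. In leukocyte-like nuclei Col4a3 was at 54 CPM in corrected, 167 in homozygous, 73.6 in heterozygous and 43.2 in WT nuclei. By CPM this was above the cardiomyocyte-like level in each library. Per nucleus, the cardiomyocyte-like interval of Col4a3 lay wholly above the leukocyte-like one in 1 library. That of Col4a4 did so in 0 libraries, per nucleus or by CPM.

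Col13a1 (chromosome 10, 61838236 to 61979108), a transmembrane collagen of cell junctions, was scarce in homozygous cardiomyocyte-like nuclei. It had 11.7 CPM [10.1 to 13.5] in corrected, 0.56 [0.28 to 1.0] in homozygous, 7.25 [5.97 to 8.72] in heterozygous and 11.2 [9.66 to 13] in WT nuclei, from 183 UMIs in corrected, 11 in homozygous, 112 in heterozygous and 181 in WT nuclei. Homozygous nuclei were 20.1-fold lower [11 to 40.9] than WT, corrected nuclei 20.9-fold higher [11.4 to 42.5] than homozygous, and the corrected and WT intervals overlapped. Leukocyte-like nuclei had 2.81 CPM in corrected, 2.7 in homozygous, 5.35 in heterozygous and 5.61 in WT nuclei. Endothelial-like nuclei gave the other direction, with 24.8 CPM [19.96 to 30.4] in corrected, 50.1 [41.3 to 60.2] in homozygous, 36.3 [29.3 to 44.5] in heterozygous and 26.2 [19.8 to 33.9] in WT nuclei, where homozygous nuclei were 1.91-fold higher [1.38 to 2.68] than WT and corrected nuclei 2.02-fold lower [1.52 to 2.69] than homozygous.

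Over all members in cardiomyocyte-like nuclei, 17 were higher and 3 lower of 26 read in homozygous against WT nuclei. All genes had 11.9% higher and 22.2% lower. The median log2 ratio of all genes was -0.19 by CPM, -0.02 with TMM factors and -0.02 without Malat1 in the total, and that of the members was 0.96 by CPM. In corrected against homozygous nuclei, the median of all genes was 0.12 by CPM. Fibrillar genes were among the higher ones. Col1a1 had 5.56 CPM in corrected, 19.5 in homozygous, 5.18 in heterozygous and 4.22 in WT nuclei, Col1a2 9.13 CPM in corrected, 26.9 in homozygous, 6.53 in heterozygous and 6.4 in WT nuclei, and Col3a1 14.1 CPM in corrected, 42.5 in homozygous, 9.25 in heterozygous and 9.0 in WT nuclei. Homozygous nuclei were 4.61-fold higher [3.55 to 6.05] for Col1a1, 4.2-fold higher [3.4 to 5.24] for Col1a2 and 4.72-fold higher [3.95 to 5.67] for Col3a1 than WT. Col8a1 was at 21.1 CPM in corrected, 37.2 in homozygous, 15.4 in heterozygous and 8.01 in WT nuclei and Col12a1 at 0.575 CPM in corrected, 5.6 in homozygous, 0.453 in heterozygous and 0.311 in WT nuclei, with the homozygous nuclei highest for both.

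These nuclei also held RNA of fibroblast markers. All 11 were above 0 in each library, at 7.99% in corrected, 9.37% in homozygous, 7.18% in heterozygous and 4.82% in WT nuclei of the fibroblast-like UMIs per nucleus, and their summed level was 327 CPM in corrected, 355 in homozygous, 330.03 in heterozygous and 226 in WT nuclei. Col1a1 stood at 12.1% in corrected, 23.4% in homozygous, 22.8% in heterozygous and 15.3% in WT nuclei of its own fibroblast-like level per nucleus, and Col8a1 at 3.27% in corrected, 2.22% in homozygous, 2.22% in heterozygous and 1.62% in WT nuclei. Of the members with enough UMIs in fibroblast-like nuclei, 28 of 31 in corrected, 27 of 33 in homozygous, 24 of 27 in heterozygous and 22 of 25 in WT nuclei lay at or below the percentage of the highest fibroblast marker. That marker was Fbln1, far from the rest at 68.1% in corrected, 46.4% in homozygous, 70.7% in heterozygous and 33.9% in WT nuclei, while the median marker stood at 7.25% in corrected, 7.44% in homozygous, 6.59% in heterozygous and 4.38% in WT nuclei. Above the median marker were 17 of 31 members in corrected, 22 of 33 in homozygous, 17 of 27 in heterozygous and 16 of 25 in WT nuclei, Col1a1 among them in each library. Col4a2 and Col4a5 were above every fibroblast marker in all 4 libraries. The part of such RNA in the fibrillar values was not tested. Members lower in homozygous than in WT cardiomyocyte-like nuclei, besides Col13a1, were Col5a3 (2.11-fold lower [1.21 to 3.74]) and Col11a2 (2.33-fold lower [1.67 to 3.28]), and Col11a2 was at 4.02 CPM in corrected, 2.85 in homozygous, 3.43 in heterozygous and 6.65 in WT nuclei.

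**Figure D5:**
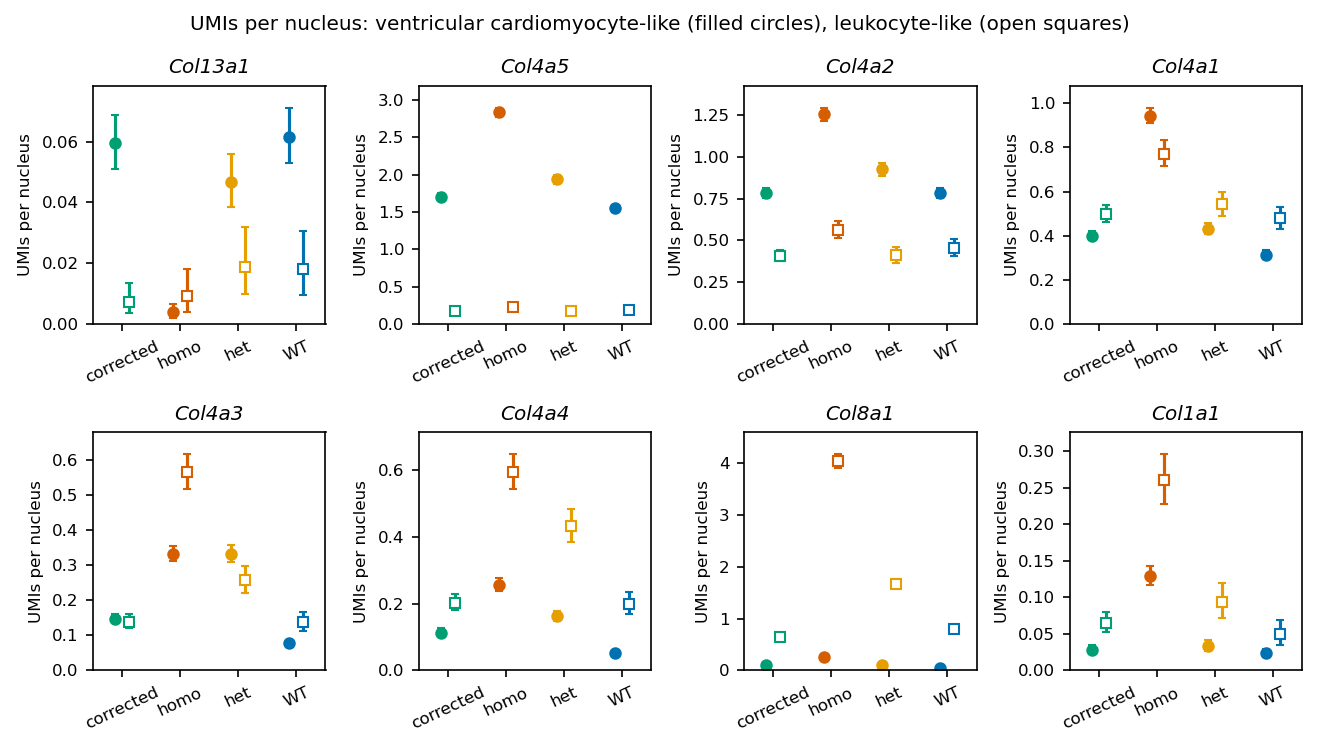
UMIs per nucleus of 8 collagens in each library, in ventricular cardiomyocyte-like nuclei (filled circles) and leukocyte-like nuclei (open squares), with 95% counting intervals. Col4a5 lies far above the leukocyte-like level in every library, Col13a1 is at 0.00373 UMIs per nucleus in homozygous cardiomyocyte-like nuclei, and Col8a1 and Col1a1 lie below the leukocyte-like level.

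The remaining cardiomyocyte-like comparisons had counts as follows. In corrected against homozygous nuclei, 5 members were higher and 11 lower of 27 read, where all genes had 15.5% higher and 10.1% lower. The higher ones were Col13a1, Col5a3 (5.7-fold higher [3.57 to 9.5]), Col6a6 (5.59-fold higher [3.03 to 11.1]), Col23a1 (1.98-fold higher [1.52 to 2.58]) and Col27a1 (1.62-fold higher [1.13 to 2.31]). The lower ones ran from Col12a1 (9.75-fold lower [4.95 to 21.9]), Col1a1 (3.5-fold lower [2.77 to 4.47]) and Col3a1 (3.01-fold lower [2.59 to 3.51]) to Col18a1, whose interval crossed 1. In corrected against WT nuclei, 11 were higher and 1 lower (Col11a2) of 25 read, beside 6.19% higher and 8.87% lower over all genes. Col6a3 (3.05-fold higher [1.95 to 4.9]), Col5a3 (2.71-fold higher [1.85 to 4.04]) and Col8a1 (2.63-fold higher [2.14 to 3.25]) were the furthest. Heterozygous against WT nuclei had 4 higher and 4 lower of 24 read, beside 5.5% higher and 7.46% lower over all genes. Col4a3, Col4a4, Col8a1 (1.92-fold higher [1.54 to 2.4]) and Col6a3, whose interval crossed 1, were higher, and Col14a1, Col5a3, Col11a2 and Col13a1 (1.55-fold lower [1.22 to 1.98]) lower.

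The other members past the fold in cardiomyocyte-like nuclei were scarcer. Col5a2 had 15 CPM in corrected, 14.3 in homozygous, 7.89 in heterozygous and 6.52 in WT nuclei, and Col27a1 had 4.85 CPM in corrected, 3.0 in homozygous, 2.65 in heterozygous and 1.86 in WT nuclei. Type VI genes had the corrected or homozygous nuclei on top, with Col6a1 at 4.15 CPM in corrected, 5.91 in homozygous, 2.52 in heterozygous and 3.29 in WT nuclei, Col6a2 at 2.68 CPM in corrected, 5.09 in homozygous, 2.14 in heterozygous and 2.61 in WT nuclei and Col6a3 at 5.11 CPM in corrected, 4.89 in homozygous, 2.52 in heterozygous and 1.68 in WT nuclei. Col6a6 was at 3.7 CPM in corrected, 0.662 in homozygous, 2.2 in heterozygous and 1.49 in WT nuclei, with the homozygous nuclei lowest as in fibroblast-like nuclei, and Col5a3 was at 6.39 CPM in corrected, 1.12 in homozygous, 1.04 in heterozygous and 2.36 in WT nuclei, with the corrected nuclei highest as there. Col4a6 was highest in homozygous nuclei, at 3.83 CPM in corrected, 8.45 in homozygous, 3.62 in heterozygous and 2.42 in WT nuclei, where fibroblast-like nuclei had it lowest in that library. The cardiomyocyte-like intervals of Col6a6 and Col5a3 lay wholly above the leukocyte-like ones in 0 libraries, per nucleus or by CPM. That of Col4a6 did so in 1 library per nucleus and in 0 by CPM. The part of fibroblast RNA in these values was not tested. Col15a1 had 7.79 CPM in corrected, 5.4 in homozygous, 3.36 in heterozygous and 3.91 in WT nuclei, Col18a1 had 1.28 CPM in corrected, 2.04 in homozygous, 1.16 in heterozygous and 0.994 in WT nuclei, Col14a1 had 3.7 CPM in corrected, 5.19 in homozygous, 1.42 in heterozygous and 2.67 in WT nuclei, and Col23a1 had 9.77 CPM in corrected, 4.94 in homozygous, 8.28 in heterozygous and 6.58 in WT nuclei.

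Endothelial-like nuclei carried Col4a1 and Col4a2 as their main members above the leukocyte-like level. Col4a1 was at 679 CPM [653 to 707] in corrected, 547 [517 to 578] in homozygous, 363 [339.8 to 387] in heterozygous and 482 [453 to 512] in WT nuclei, and Col4a2 at 589 CPM [565 to 615] in corrected, 429 [403 to 457] in homozygous, 283 [263 to 304] in heterozygous and 444 [416 to 472] in WT nuclei. Corrected nuclei were highest and heterozygous nuclei lowest for both, and Col4a2 was 1.57-fold lower [1.42 to 1.73] in heterozygous than in WT nuclei. Col28a1, a type VI-like chain, had 11.4 CPM [8.25 to 15.5] in corrected, 40.9 [33 to 50.05] in homozygous, 58.2 [49.2 to 68.3] in heterozygous and 32.1 [25.1 to 40.6] in WT nuclei, so it was 3.57-fold lower [2.46 to 5.27] in corrected than in homozygous nuclei and 2.81-fold lower [1.89 to 4.22] than in WT. Col15a1 had 84.4 CPM in corrected, 57.1 in homozygous, 37.5 in heterozygous and 70.7 in WT nuclei, and Col18a1 was level at 24.5 CPM in corrected, 24.2 in homozygous, 23 in heterozygous and 25.3 in WT nuclei. Fibrillar members were past 1.5-fold above WT in homozygous nuclei for all 5 of the 5 read, beside 10.0% over all genes. Col1a1 (4.31-fold higher [2.95 to 6.44]), Col1a2 (5.28-fold higher [3.79 to 7.53]) and Col3a1 (3.99-fold higher [3.15 to 5.11]) led them. The fibroblast marker level in these nuclei was 787 CPM in corrected, 1032 in homozygous, 792 in heterozygous and 507 in WT nuclei, with homozygous nuclei highest as well, and its part was not tested.

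By count, 12 of 20 members were higher and 0 lower in homozygous than in WT endothelial-like nuclei, beside 10.0% higher and 9.27% lower over all genes. Corrected against homozygous nuclei had 1 higher (Col5a3, 2.77-fold higher [1.57 to 5.22]) and 11 lower of 21, beside 7.74% higher and 9.91% lower. Corrected against WT nuclei had 5 higher and 1 lower of 19, beside 5.32% higher and 6.03% lower, and the 5 were Col4a3, Col4a4, Col4a5, Col5a3 and Col6a3. Heterozygous against WT nuclei had 1 higher (Col28a1) and 3 lower (Col4a2, Col15a1 and Col3a1) of 16, beside 4.36% higher and 6.2% lower. In leukocyte-like nuclei, 14 were higher and 2 lower of 21 in homozygous against WT nuclei, beside 10.4% higher and 9.09% lower over all genes. Col8a1 there was at 255 CPM in corrected, 1196 in homozygous, 479 in heterozygous and 249.9 in WT nuclei, or 0.654 UMIs in corrected, 4.05 in homozygous, 1.67 in heterozygous and 0.798 in WT nuclei per nucleus, the homozygous library again the highest.

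Behind these counts, Col3a1 in endothelial-like nuclei was at 37.6 CPM in corrected, 158 in homozygous, 21.5 in heterozygous and 39.5 in WT nuclei, Col1a2 at 26.1 CPM in corrected, 102 in homozygous, 22.3 in heterozygous and 19.3 in WT nuclei and Col1a1 at 13.1 CPM in corrected, 67.2 in homozygous, 13.7 in heterozygous and 15.6 in WT nuclei. Homozygous nuclei were the highest for all 3 genes. Col5a2 was at 91.8 CPM in corrected, 152 in homozygous, 94.5 in heterozygous and 97.3 in WT nuclei, Col5a1 at 15.5 CPM in corrected, 23.3 in homozygous, 10.9 in heterozygous and 14.7 in WT nuclei and Col14a1 at 10.1 CPM in corrected, 19.3 in homozygous, 6.25 in heterozygous and 3.67 in WT nuclei. Col4a3 had 20.7 CPM in corrected, 36.9 in homozygous, 17.2 in heterozygous and 12.4 in WT nuclei, and Col4a4 had 27.8 CPM in corrected, 39.5 in homozygous, 18 in heterozygous and 15.2 in WT nuclei, so WT was the lowest library for this pair in endothelial-like nuclei too. The endothelial-like intervals of Col4a3 and Col4a4 lay wholly above the leukocyte-like ones in 0 libraries, per nucleus or by CPM. Col8a1 had 166 CPM in corrected, 303 in homozygous, 206 in heterozygous and 212 in WT nuclei. The type VI genes had 7.63 CPM in corrected, 18.9 in homozygous, 12.9 in heterozygous and 6.89 in WT nuclei for Col6a1, 10.6 CPM in corrected, 16.3 in homozygous, 5.86 in heterozygous and 9.18 in WT nuclei for Col6a2 and 16.1 CPM in corrected, 20.2 in homozygous, 10.5 in heterozygous and 5.51 in WT nuclei for Col6a3.

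The smaller lineages carried several of these members in common. Pericytes wrap capillaries, and in pericyte-like nuclei Col25a1, a transmembrane collagen, was at 141 CPM [126 to 158] in corrected, 60.4 [46.1 to 77.7] in homozygous, 138 [121 to 157] in heterozygous and 211 [186 to 239.9] in WT nuclei. It was 3.5-fold lower [2.63 to 4.73] in homozygous than in WT nuclei and 2.34-fold higher [1.77 to 3.14] in corrected than in homozygous nuclei. Endocardial-like nuclei had 80.9 CPM [64.9 to 99.7] in corrected, 22.3 [15.6 to 31.1] in homozygous, 57.3 [44.2 to 73.1] in heterozygous and 65.4 [50.6 to 83.2] in WT nuclei for this gene, the homozygous nuclei again lowest, and these were 2.93-fold lower [1.92 to 4.55] than WT. Col5a3 in pericyte-like nuclei was at 292 CPM in corrected, 167 in homozygous, 136 in heterozygous and 195 in WT nuclei. Corrected nuclei were highest, as in fibroblast-like nuclei, but homozygous nuclei were within 1.5-fold of WT.

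Endocardial-like nuclei, which line the chambers, had Col4a3 at 517 CPM in corrected, 523 in homozygous, 416 in heterozygous and 331 in WT nuclei and Col4a4 at 627 CPM in corrected, 659 in homozygous, 642 in heterozygous and 535 in WT nuclei. Homozygous nuclei were 1.58-fold higher [1.39 to 1.8] than WT for Col4a3, and Col4a4 stayed within 1.5-fold. Col23a1, another transmembrane collagen, was at 197 CPM [171 to 225] in corrected, 163 [143 to 184] in homozygous, 132 [112 to 155] in heterozygous and 91.2 [73.5 to 112] in WT nuclei in them and at 380.3 CPM [324 to 444] in corrected, 409 [364 to 458] in homozygous, 325 [274 to 383] in heterozygous and 179 [137 to 229] in WT nuclei in lymphatic endothelial-like nuclei. WT was the lowest library in both lineages. In lymphatic endothelial-like nuclei, Col23a1 was 2.13-fold higher [1.58 to 2.9] in corrected, 2.29-fold higher [1.74 to 3.05] in homozygous and 1.82-fold higher [1.34 to 2.49] in heterozygous nuclei than in WT. Smooth muscle-like nuclei had Col4a6 at 137 CPM in corrected, 125 in homozygous, 123 in heterozygous and 145 in WT nuclei, within 1.5-fold throughout. Col18a1 in the same lineage was at 151 CPM in corrected, 122 in homozygous, 81 in heterozygous and 55.3 in WT nuclei, 2.73-fold higher [1.49 to 5.41] in corrected and 2.21-fold higher [1.18 to 4.46] in homozygous nuclei than in WT, from 13 WT UMIs. Mesothelial-like nuclei had Col3a1 at 615 CPM in corrected, 744 in homozygous, 926 in heterozygous and 1071 in WT nuclei, and Schwann-like nuclei had Col16a1 at 196 CPM in corrected, 149 in homozygous, 84.5 in heterozygous and 59.2 in WT nuclei and Col18a1 at 203 CPM in corrected, 196 in homozygous, 114 in heterozygous and 93 in WT nuclei, from 7 and 11 WT UMIs.

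The other 10 members had 24 to 274 UMIs in all and are given here by their totals. Col19a1 had 274 UMIs, Col7a1 273, Col22a1 255, Col8a2 223, Col9a3 201, Col10a1 130, Col9a2 86, Col17a1 81, Col9a1 34 and Col6a5 24. Col9a2, a FACIT chain of cartilage, had 10 UMIs in the corrected, 66 in the homozygous, 4 in the heterozygous and 6 in the WT library, and Col8a2 had 38 in the corrected, 141 in the homozygous, 33 in the heterozygous and 11 in the WT library.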

How the data were processed

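Single-nucleus RNA of 4 heart libraries was deposited by the authors as UMI counts per gene and barcode, raw whole numbers per the file headers. Per the submitters' processing notes the tools were Cell Ranger 6.1.1 and Seurat 4 on build mm10 (GRCm38), while the matrix headers give Cell Ranger 4.0.0; intron counting and the barcode filter are not given in the sources used here. Nuclei under 300 genes or above 5% mitochondrial UMIs were dropped. The highest Scrublet scores (scanpy 1.11.5) were removed as doublets at 0.8% per 1000 barcodes, which took 12.1% of corrected, 9.29% of homozygous, 7.79% of heterozygous and 7.59% of WT barcodes. Clustering used 2000 variable genes without collagens, 30 principal components, 20 neighbours and Leiden resolution 0.8 (leidenalg 0.10.2), with no batch integration.

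Of 28 clusters, 17 were named by at least 3 enriched markers, with thresholds set after the data were seen, and 11 stayed unnamed (6.34% to 8.66% of nuclei per library). Counts were summed by lineage and library. Poisson and conditional binomial 95% intervals are exact, and the interval code was tested on simulated data. Added features with names starting ABE were kept out of totals. Members, lists and comparisons were chosen with earlier results of these data known. Text names members with at least 300 UMIs, members past 1.5-fold in the 3 main lineages, and up to 4 genes per list and comparison. Each genotype had 1 library, so no p-values are given. Alternatives covered scaling (TMM factors from edgeR 4.0.16 among them), low-count limits, thinning to 1000 UMIs per nucleus, doublets and clustering resolution.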

Additional observations from a re-analysis of the deposited data

Results flagged for a closer look

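Only ratios whose counting interval lay wholly above or wholly below 1 were taken here. For 6 collagens the ratio between the same 2 libraries lay past 1.5-fold in opposite directions in different lineages. They are 6 of the 27 collagens read in at least 2 lineages (22.2%), where 7.85% of all 12434 genes so read did the same. Each group is 1 library, and the difference between lineages was not tested. Of the 18 ratios, 6 came from a lineage in which the gene lay above the leukocyte-like level: those of Col13a1 in endothelial-like, Col4a6 in fibroblast-like, Col27a1 in Schwann-like and Col3a1 in mesothelial-like nuclei. That rule asks for every library, so a gene low in any library fails it. Col13a1 in cardiomyocyte-like nuclei had its interval wholly above the leukocyte-like one in 3 libraries per nucleus and in 2 by CPM, the homozygous library not among them.

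Col13a1, the transmembrane collagen, had a log2 ratio of homozygous to WT of -4.33 in cardiomyocyte-like and 0.94 in endothelial-like nuclei. Its log2 ratio of corrected to homozygous was 4.38 in cardiomyocyte-like and -1.01 in endothelial-like nuclei. Col4a6, a basement membrane chain, had a log2 ratio of homozygous to WT of 1.8 in cardiomyocyte-like and -1.06 in fibroblast-like nuclei, and of corrected to homozygous of -1.14 in cardiomyocyte-like and 0.87 in fibroblast-like nuclei. Col14a1, a FACIT, had a log2 ratio of corrected to homozygous of 1.05 in Schwann-like and -0.94 in endothelial-like nuclei. The same ratio of Col27a1 was 1.23 in Schwann-like, 0.69 in cardiomyocyte-like and -1.47 in endocardial-like nuclei. For Col3a1 the log2 ratio of corrected to WT was 1.35 in smooth muscle-like, 0.65 in cardiomyocyte-like and -0.8 in mesothelial-like nuclei, and for Col5a2 it was 1.2 in cardiomyocyte-like and -0.63 in lymphatic endothelial-like nuclei.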

How the results depend on the processing

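No paired analysis was possible because each genotype had 1 library. Over 12 counts of collagens past 1.5-fold, 89 of 112 alternative values stayed within 1.5 times the reported count. Of 2509 values for single genes, 2399 lay inside the counting interval of the reported ratio and 110 outside it. The limits of 1 UMI in each library and of 200 UMIs leave each ratio as it was, so their values could only lie inside. A change of sign was looked for only where the reported ratio was past 1.5-fold, and 0 of those values changed sign. Values under these low-count limits equal the reported ratio and could not change sign. The other 23 counts follow. With at least 1 UMI in each library, where 35 to 42 members were read, they were 9 for fibroblast-like heterozygous against WT nuclei and 20 for corrected against WT. In cardiomyocyte-like nuclei they were 32 for homozygous, 14 for heterozygous and 22 for corrected against WT, and in endothelial-like nuclei 15 for heterozygous against WT, 23 for corrected against homozygous and 13 for corrected against WT. With at least 200 UMIs, where 7 to 23 were read, the fibroblast-like heterozygous count was 1. The cardiomyocyte-like counts were 10 for homozygous, 4 for heterozygous and 5 for corrected against WT and 9 for corrected against homozygous, and the endothelial-like counts were 3 for homozygous against WT, 6 for corrected against homozygous and 1 for corrected against WT. At 1000 UMIs per nucleus, where 7 to 23 were read, the fibroblast-like heterozygous count was 1, the cardiomyocyte-like counts were 9 for homozygous, 4 for heterozygous and 6 for corrected against WT and 7 for corrected against homozygous, and the endothelial-like count was 7 for homozygous against WT. Fibroblast cluster 1 alone, chosen after the data were seen, gave 10 of 23 for homozygous against WT nuclei, and the cause was not tested. Set against only those leukocyte-like nuclei that kept the name at both resolutions, also chosen after the data were seen, the members above the leukocyte-like level were 2 in cardiomyocyte-like, 9 in pericyte-like, 11 in endocardial-like, 4 in lymphatic endothelial-like and 13 in Schwann-like nuclei. Members under 50 UMIs could not be compared at this depth, and pooled hearts leave the spread between animals unmeasured.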
